A study of Mus musculus with 19 samples.

Results

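Brown fat thermogenic genes were examined in the suprarenal aorta of 19 male mice by bulk RNA-Seq. They are 6 genes (Ucp1, Cidea, Elovl3, Dio2, Ppargc1a and Prdm16) chosen by name for their known roles in brown adipocytes, out of 20408 genes in the deposited table. All mice lacked ApoE, were on a C57BL/6 background, carried SMA-CreERT2, a Cre recombinase driven by the smooth muscle actin promoter, received tamoxifen, ate regular chow and were used at 8 weeks of age. IKKβ+/+ mice, labelled wild-type, were SMA-CreERT2 ApoE-/- controls, and IKKβ-/- mice, labelled KO, also carried floxed Ikbkb alleles, so that Ikbkb, which encodes the kinase IKKβ, was deleted in smooth muscle cells while the other cells of the aorta kept it. Osmotic pumps delivered saline or angiotensin II (Ang II), a vasoconstrictor peptide, for 24 h. The Ang II dose was 1000 ng/min/kg, the upper end of the range of 500 to 1000 ng/min/kg in the sample labels. The IKKβ+/+ mice comprised 5 with Ang II and 5 with saline, and the IKKβ-/- mice 5 with Ang II and 4 with saline.

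Brown adipocytes burn fatty acids to make heat. UCP1 lets protons back across the inner mitochondrial membrane without ATP synthesis, CIDEA sits on lipid droplets and helps them to fuse, and ELOVL3 elongates saturated and monounsaturated fatty acids. DIO2 turns thyroxine into the active thyroid hormone triiodothyronine, PGC-1α (Ppargc1a) is a coactivator that drives mitochondrial biogenesis, and PRDM16 is a transcriptional regulator that specifies the brown fat fate. In the body several of these genes answer to noradrenaline, which reaches brown fat through sympathetic nerves and acts on the β3-adrenergic receptor and cAMP. The aorta is surrounded by perivascular fat, which in rodents can have brown features, while Dio2, Ppargc1a and Prdm16 are also used by other cells.

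RefSeq promoter windows were used for 4 of the 6 genes, and none is printed for Cidea and Elovl3. The 250 bases before each start site (GRCm38.p6) are shown because they differ in exact matches to motifs, among them those of cAMP and nuclear receptor responses. The Ucp1 window is chr8:83290098-83290347 on the plus strand, and those of Dio2 (chr12:90739039-90739288), Ppargc1a (chr5:51567726-51567975) and Prdm16 (chr4:154636874-154637123) lie on the minus strand. Each is written 5′ to 3′ and ends at the base before the start, with motif matches in capitals.
Ucp1: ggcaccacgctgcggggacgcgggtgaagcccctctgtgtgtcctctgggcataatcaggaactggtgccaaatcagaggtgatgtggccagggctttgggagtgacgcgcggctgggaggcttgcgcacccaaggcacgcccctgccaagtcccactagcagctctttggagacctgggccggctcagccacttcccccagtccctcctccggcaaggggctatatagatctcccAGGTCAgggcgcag
Dio2: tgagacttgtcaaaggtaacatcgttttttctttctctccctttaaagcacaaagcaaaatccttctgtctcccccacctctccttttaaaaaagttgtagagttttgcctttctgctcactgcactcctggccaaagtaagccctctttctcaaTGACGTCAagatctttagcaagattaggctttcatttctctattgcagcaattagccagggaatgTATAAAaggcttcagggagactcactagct
Ppargc1a: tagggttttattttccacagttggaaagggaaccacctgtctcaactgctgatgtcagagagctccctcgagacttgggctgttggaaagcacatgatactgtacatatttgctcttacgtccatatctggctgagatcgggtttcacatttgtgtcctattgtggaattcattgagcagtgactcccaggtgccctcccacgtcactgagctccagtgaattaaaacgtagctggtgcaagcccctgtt
Prdm16: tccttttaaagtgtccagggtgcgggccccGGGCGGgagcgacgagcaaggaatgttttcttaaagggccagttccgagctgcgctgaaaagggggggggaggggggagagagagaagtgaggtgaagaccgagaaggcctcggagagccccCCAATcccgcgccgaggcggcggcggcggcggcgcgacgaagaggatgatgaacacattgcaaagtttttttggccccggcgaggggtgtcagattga

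The motifs were searched on both strands as exact letters, in these windows and in all 32851 RefSeq windows of the same length. TGACGTCA, the cAMP response element, lay in the Dio2 window from -95 to -88 relative to the start site and in 1.55% of all windows. TATAAA, the TATA box, was also in the Dio2 window, from -30 to -25, and in 12.4% of all windows. The Ucp1 window held AGGTCA, a nuclear receptor half-site, from -14 to -9, as did 14% of all windows. In the Prdm16 window CCAAT was found from -98 to -94 and GGGCGG from -220 to -215, motifs present in 33.8% and 32.7% of all windows. The Ppargc1a window held no exact match to any of them, and partial matches were not counted. CACGTG, the E-box, was in none of the 4 windows and in 6.02% of all windows. The Prdm16 window had 22 CpG dinucleotides, the Ucp1 window 12, the Ppargc1a window 5 and the Dio2 window 2, against a median of 6 in all windows. A match describes these letters only.

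Each mouse had from 11382573 to 19906694 reads on genes, and values are given as normalized counts, the reads of a mouse divided by its size factor, so that 1 read is worth between 0.666 and 1.80. Ikbkb, the deleted gene, had 673 ± 78.6 normalized counts (SD, n = 5) in saline-infused and 726 ± 46.3 (SD, n = 5) in Ang II-treated IKKβ+/+ mice, and 515 ± 74.3 (SD, n = 4) and 548 ± 87.9 (SD, n = 5) in the corresponding IKKβ-/- mice. In IKKβ-/- against IKKβ+/+ mice the log2 fold change of Ikbkb was -0.39 ± 0.12 (SE) with saline and -0.42 ± 0.12 (SE) with Ang II. The Benjamini-Hochberg adjusted p (limma) was 0.0988 and 0.173. Smooth muscle genes were abundant in every library, with sums over 7 markers from 305181 to 634959. Mice X2384 and X2385, both Ang II-treated IKKβ-/- mice, stood apart in genes of fat cells. Adiponectin (Adipoq), a hormone made by adipocytes, had 3350 and 3298 normalized counts in these mice and at most 1012 in any other. Values without them, chosen after seeing the data, are given beside the results of the members with Ang II in IKKβ-/- mice, the ratios and the correlations. Mouse numbers run in a separate range for each group and no batch is stated, so that any batch and the groups cannot be told apart.

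The 6 genes spanned a wide range of levels. In RPKM, reads per kilobase of exon scaled to the depth of the library, the median over the 19 mice was 33.8 for Dio2, 8.92 for Prdm16, 7.49 for Cidea, 0.615 for Ppargc1a, 0.305 for Ucp1 and 0 for Elovl3. Dio2 was thus the most abundant of these transcripts in the aorta and Ucp1 and Elovl3 were the scarcest. Dio2 ran from 8.96 to 84.5 RPKM and overlapped with Prdm16. Prdm16 and Cidea overlapped in their ranges, from 3.79 to 13.3 and from 1.26 to 34.0 on the same scale. Ucp1 ran from 0 to 46.4, a range that takes in those of Cidea and Ppargc1a (0.189 to 1.24). Cidea, Dio2, Ppargc1a and Prdm16 reached 10 normalized counts in all 19 mice, Ucp1 in 8 and Elovl3 in 1. A gene was tested if 4 or more mice reached 10, which held for 5 of the 6 genes and for 14845 genes in all.

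**Figure D1:**
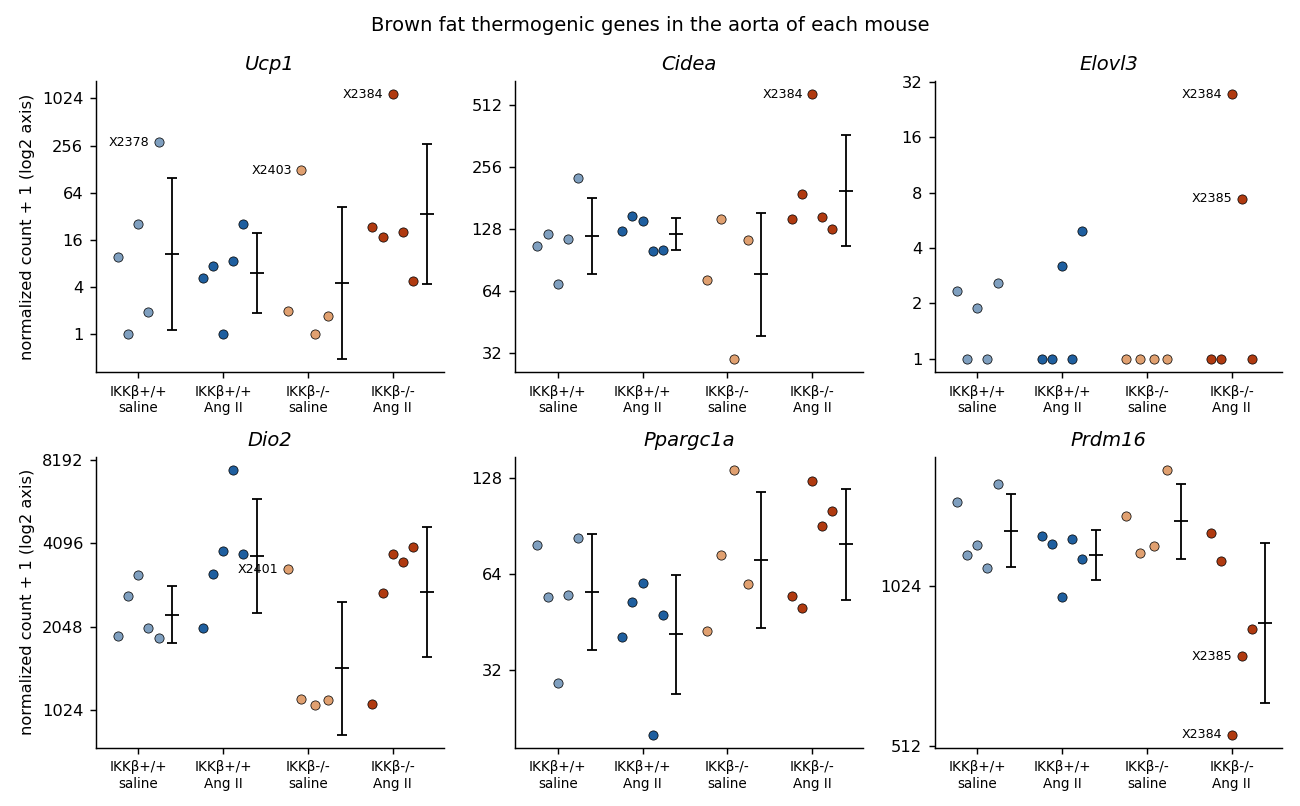
Normalized counts plus 1 (log2 axis) of the 6 genes, with 1 point per mouse in each of the 4 groups and, beside the points, the mean and SD on the log2 scale (not drawn for Elovl3, which was not tested). Ucp1 reached 283, 124 and 1156 normalized counts in mice X2378, X2403 and X2384 and stayed at or below 24.8 in all the others, while Prdm16 was lowest in X2384 and X2385.

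In each comparison a gene was called if its fold change exceeded 1.2 with an adjusted p under 0.1 (limma, Benjamini-Hochberg adjustment over all genes tested), and the same threshold applies throughout. With Ang II against saline, 0 of the 5 tested genes were called in IKKβ+/+ mice, where 8.66% of all genes tested were called. None had an unadjusted p under 0.05, and edgeR and DESeq2 also called 0, although DESeq2 gave no p for Ucp1 in any comparison. With the deletion 1 of the 5, Prdm16, was called and fell, against 5.29% of all genes, while 3 had an unadjusted p under 0.05. Between genotypes 0 of 5 were called with saline (5.47% of all genes) and 0 of 5 with Ang II (0.128% of all genes), by limma, edgeR and DESeq2, and 0 and 2 of them had an unadjusted p under 0.05. The effect of Ang II differed between the genotypes for 0 of 5, and for 0% of all genes tested by limma, 3 genes by edgeR and 279 by DESeq2, with 1 of the 5 at an unadjusted p under 0.05. For all 5 genes the groups overlapped in each of the 4 comparisons of a pair of groups. Among all genes tested, 8.42% did not overlap between Ang II and saline in IKKβ+/+ mice and 5.29% in IKKβ-/- mice, and 8.76% and 1.54% did not overlap between the genotypes with saline and with Ang II.

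Ucp1 (ENSMUSG00000031710.4, chromosome 8 of GRCm38, 83290352 to 83298452), the uncoupling protein itself, was scarce in most aortas and high in 3. In saline-infused IKKβ+/+ mice it had 8.65, 0, 24.7, 0.949 and 283 normalized counts, and in Ang II-treated IKKβ+/+ mice 4.28, 6.40, 0, 7.64 and 24.8. The IKKβ-/- values were 0.965, 124, 0 and 0.726 with saline and 22.2, 16.7, 1156, 19.3 and 3.86 with Ang II. The high mice were X2378, X2403 and X2384, and they belonged to 3 different groups. X2384 alone held 67.8% of all Ucp1 counts of the 19 mice, and its value was 4.09 times the next highest.

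Reads from Ucp1 were found in 16 of the 19 mice, and more than 3 reads in 12. In the 3 mice at 0 the expected number of reads could still have been up to 3, a limit that covers counting error only. Within groups the SD of Ucp1 was 2.83 on the log2 scale, the second largest of the 14845 genes tested (rank 2), against a median of 0.30. The difference between Ang II and saline was 2.91 ± 1.67 (log2 fold change ± SE, adjusted p = 0.380, limma) in IKKβ-/- mice and -0.79 ± 1.57 (adjusted p = 0.826) in IKKβ+/+ mice. The 95% intervals ran from -0.57 to 6.40 and from -4.08 to 2.49, and covered 0 as well as large changes. Without X2384 and X2385 the value in IKKβ-/- mice was 1.47 ± 1.73 (adjusted p = 0.731).

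Cidea (ENSMUSG00000024526.9), the lipid droplet protein, was measured well above the floor in all mice. It had 104, 120, 67.8, 113 and 224 normalized counts in saline-infused and 124, 147, 138, 98.4 and 100.4 in Ang II-treated IKKβ+/+ mice. The IKKβ-/- mice had 71.4, 141, 28.8 and 112 with saline and 141, 189, 577, 145 and 127 with Ang II. X2384 was again the highest of all mice, 2.58 times above the next, and the lowest value, 28.8, was that of X2406 in the saline-infused IKKβ-/- group.

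The log2 fold change of Cidea with Ang II was 1.36 ± 0.44 in IKKβ-/- mice (adjusted p = 0.101, limma, with a 95% interval from 0.44 to 2.27), just outside the threshold. It was 0.04 ± 0.41 in IKKβ+/+ mice (adjusted p = 0.970). The difference between these effects was 1.31 ± 0.60 (adjusted p = 0.427), with a 95% interval from 0.06 to 2.57, and 0.94 ± 0.55 (adjusted p = 0.617) without X2384 and X2385. DESeq2 on the recovered reads called Cidea in IKKβ-/- mice (log2 fold change 1.41, adjusted p = 0.0309), as did limma with array quality weights (1.29, adjusted p = 0.0956), and edgeR did not (1.40, adjusted p = 0.110). Without those mice the log2 fold change in IKKβ-/- mice was 0.98 ± 0.42 (adjusted p = 0.291).

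Elovl3 (ENSMUSG00000038754.5, chromosome 19 of GRCm38, 46131897 to 46135694), the fatty acid elongase, was at the limit of detection. A total of 40 reads was found in 7 of the 19 mice. It had 1.33, 0, 0.881, 0 and 1.59 normalized counts in saline-infused and 0, 0, 2.19, 0 and 3.98 in Ang II-treated IKKβ+/+ mice, 0 in all 4 saline-infused IKKβ-/- mice, and 0, 0, 26.4, 6.42 and 0 in Ang II-treated IKKβ-/- mice. The highest values were those of X2384 and X2385, and no test was made.

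Dio2 (ENSMUSG00000007682.6, chromosome 12 of GRCm38, 90724552 to 90738438), the thyroid hormone deiodinase, was abundant in all mice. Its RefSeq promoter window, which holds the cAMP response element shown above, begins at 90739039. The RefSeq start site thus lies upstream of the gene limits in the deposited data. In IKKβ+/+ mice Dio2 had 1895, 2653, 3160, 2024 and 1859 normalized counts with saline and 2025, 3167, 3832, 7517 and 3730 with Ang II. The IKKβ-/- values with saline were 3305, 1126, 1068 and 1116, and those with Ang II 1081, 2722, 3747, 3509 and 3959. Each IKKβ-/- group held 1 mouse at the level of the other group: X2401, at 3305 among saline-infused mice that otherwise lay between 1068 and 1126, and X2380, at 1081 among Ang II-treated mice that otherwise lay between 2722 and 3959.

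The mean of Dio2 was higher with Ang II in both genotypes, 4054 ± 2065 (SD, n = 5) against 2318 ± 569 (SD, n = 5) in IKKβ+/+ and 3003 ± 1172 (SD, n = 5) against 1654 ± 1101 (SD, n = 4) in IKKβ-/- mice. The log2 fold changes were 0.71 ± 0.37 (adjusted p = 0.293, limma) and 0.91 ± 0.39 (adjusted p = 0.225, with a 95% interval from 0.10 to 1.73), and neither passed the test. Their difference was 0.21 ± 0.54, with a 95% interval from -0.91 to 1.33. The value in IKKβ-/- mice passed without X2380 (1.25, adjusted p = 0.0472) and without X2401 (1.31, adjusted p = 0.0922), and it was 0.64 ± 0.45 (adjusted p = 0.545) without X2384 and X2385. In contrast to Ucp1 and Cidea, Dio2 was not highest in X2384, whose 3747 counts lay among those of the other Ang II-treated mice.

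Ppargc1a (ENSMUSG00000029167.13, chromosome 5 of GRCm38, 51454250 to 51567726), the mitochondrial coactivator, was low in all groups. It had 77.9, 53.2, 28.2, 54.1 and 82.1 normalized counts in saline-infused and 39.6, 51.2, 59.2, 19.1 and 46.7 in Ang II-treated IKKβ+/+ mice. In IKKβ-/- mice it had 41.5, 72.7, 135 and 58.8 with saline and 53.6, 49.2, 125, 89.9 and 100.3 with Ang II. The Ang II-treated groups overlapped between the genotypes only from 49.2 to 59.2.

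No comparison of Ppargc1a passed the test. With Ang II its log2 fold change between IKKβ-/- and IKKβ+/+ mice was 0.94 ± 0.37 (adjusted p = 0.266, with a 95% interval from 0.18 to 1.70), and 0.65 ± 0.42 (adjusted p = 0.742) without X2384 and X2385. With saline it was 0.33 ± 0.39 (adjusted p = 0.678). The values for Ang II against saline were -0.44 ± 0.37 in IKKβ+/+ and 0.16 ± 0.39 in IKKβ-/- mice (adjusted p = 0.530 and 0.876).

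Prdm16 (ENSMUSG00000039410.16, chromosome 4 of GRCm38, 154316125 to 154636873), the brown fat fate regulator, varied least. In IKKβ+/+ mice it had 1471, 1168, 1219, 1103 and 1590 normalized counts with saline and 1269, 1222, 974, 1252 and 1146 with Ang II. In IKKβ-/- mice the values were 1381, 1180, 1212 and 1686 with saline and 1285, 1137, 538, 755 and 847 with Ang II. The 3 lowest of all 19 mice were X2384, X2385 and X2386, all Ang II-treated IKKβ-/- mice, whereas of the other 2 mice of that group X2380 (1285) lay within the saline range of 1180 to 1686 and X2383 (1137) just below it.

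Prdm16 fell by 0.63 ± 0.19 on the log2 scale with Ang II in IKKβ-/- mice (adjusted p = 0.0818, limma, with a 95% interval from -1.03 to -0.23). Its mean was 912 ± 299 (SD, n = 5) with Ang II against 1365 ± 231 (SD, n = 4) with saline. In IKKβ+/+ mice the difference was -0.15 ± 0.18 (adjusted p = 0.689), and the difference between the effects, -0.48 ± 0.26, did not pass the test (adjusted p = 0.494) and was -0.18 ± 0.21 (adjusted p = 0.810) without X2384 and X2385. The call in IKKβ-/- mice was lost without X2384 (-0.46, adjusted p = 0.177), without X2385 (-0.58, adjusted p = 0.163) and without both (-0.33, adjusted p = 0.365). It was also lost in edgeR (-0.57, adjusted p = 0.121) and kept in DESeq2 (-0.58, adjusted p = 0.0595), and it was lost when any of the mice X2352, X2386, X2401, X2406 and X2409 was left out.

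**Figure D2:**
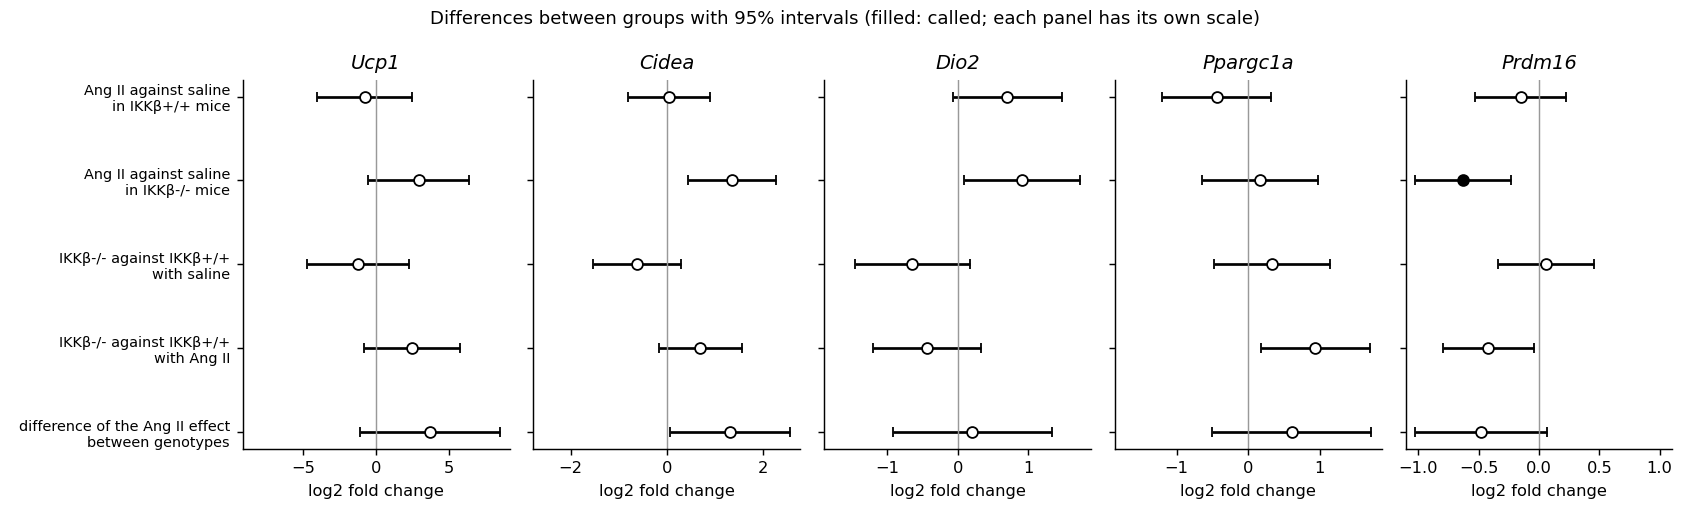
Log2 fold change (x axis, a scale per gene) of the 5 tested genes in the 5 comparisons (rows), with 95% intervals from limma. The filled point is the only call, Prdm16 with Ang II against saline in IKKβ-/- mice (-0.63), and the interval of Ucp1 is the widest in every row.

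**Figure D3:**
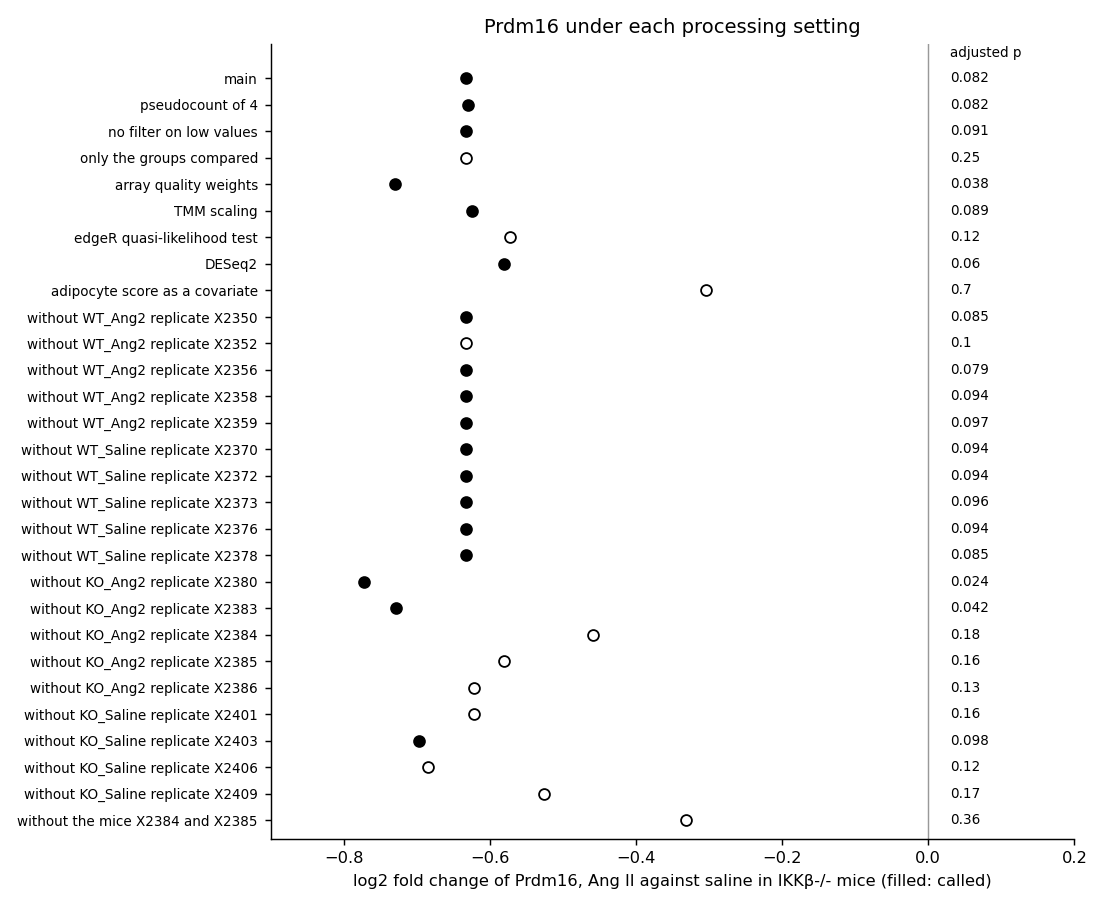
Log2 fold change of Prdm16 with Ang II against saline in IKKβ-/- mice (x axis) under each processing setting (rows), with the adjusted p at the right and filled points where the gene was called. The value is negative in all settings and is nearest to 0 with the adipocyte score as a covariate (-0.30) and without X2384 and X2385 (-0.33).

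Markers of fat cells moved with the same mice. All 14 adipocyte markers of the list were in the table and were tested. With Ang II in IKKβ-/- mice 9 of the 14 rose and 0 fell (median log2 fold change 2.18, against -0.003 over all genes), among them Adipoq (4.70 ± 0.95, adjusted p = 0.0129, limma) and perilipin 1 (Plin1, 4.04 ± 1.02, adjusted p = 0.0355), which coats lipid droplets. Without the deletion 0 of the 14 were called by limma, edgeR or DESeq2 (median 0.22, with 0 at an unadjusted p under 0.05 by limma). Their summed level ran from 9967 to 49455 normalized counts in IKKβ-/- mice with Ang II and from 6396 to 9066 with saline, and from 8605 to 15789 and from 5829 to 22449 in the corresponding IKKβ+/+ mice. Between the genotypes, 1 of the 14 had a positive difference with saline (median -1.32 in IKKβ-/- against IKKβ+/+ mice) and 14 of 14 with Ang II (median 1.09). None of these was called by limma, where 6 and 1 had an unadjusted p under 0.05, while edgeR called 1 lower with saline and 0 with Ang II, and DESeq2 called 5 lower with saline and 1 higher with Ang II. The median between the genotypes with Ang II was 0.06 without X2384 and X2385, and limma then called 2 lower with saline, Cebpa and Lipe. None of the defining markers Adipoq, Plin1 and Cidec was at 0 in any mouse. Without X2384 and X2385, 1 of the 14 was called in IKKβ-/- mice, Cidec, a relative of Cidea.

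High levels of fat cell markers did not always come with high Ucp1. X2384 and X2385 differed little in Adipoq (3350 and 3298) and in Plin1 (1834 and 1700.5), yet Ucp1 was 1156 in the former and 19.3 in the latter, and Cidea 577 and 145. X2378 and X2403, the other mice with high Ucp1 (283 and 124), had 288 and 173 of Adipoq. Conversely X2370, with 1012 of Adipoq, had 8.65 of Ucp1.

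Across the 19 mice the mean log2 level of the 14 markers was correlated with Cidea (Pearson r = 0.62, permutation p = 0.00367, adjusted p = 0.0183 over 20 relations, Spearman rho = 0.51, permutation p = 0.0258, adjusted p = 0.129), and r was 0.64 without X2372 and X2401, the 2 mice farthest from the median of the markers and both low in them. For Ucp1 r was 0.56 (permutation p = 0.0132, adjusted p = 0.0442) and rho 0.49 (permutation p = 0.0369, adjusted p = 0.131), and r was 0.46 without X2372 and X2401. For Prdm16 r was negative, -0.63 (permutation p = 0.00303, adjusted p = 0.0183), with rho = -0.42 (permutation p = 0.0727, adjusted p = 0.182) and r = -0.67 without X2372 and X2401. Without X2384 and X2385, at the high end of the markers, r over 17 mice was 0.48 for Cidea (permutation p = 0.0477, adjusted p = 0.267), 0.39 for Ucp1 (permutation p = 0.125, adjusted p = 0.415) and -0.26 for Prdm16 (permutation p = 0.314, adjusted p = 0.814). None of the 3 correlations passed after adjustment without these mice, so their passing depended on them, although each r kept its sign. The correlations within groups, with group means removed, were 0.38 for Cidea, 0.48 for Ucp1 and -0.43 for Prdm16. Dio2 gave r = 0.27 and Ppargc1a r = 0.39, with adjusted permutation p of 0.36 and 0.156. Within groups they gave -0.08 and 0.59, and the value of Ppargc1a was the largest among the tested genes. Over the 19 mice rho was 0.32 for Dio2 (adjusted permutation p = 0.347) and 0.48 for Ppargc1a (permutation p = 0.0393, adjusted p = 0.131). Without X2384 and X2385 r was 0.14 for Dio2 and 0.15 for Ppargc1a (adjusted permutation p = 0.905 for each).

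**Figure D4:**
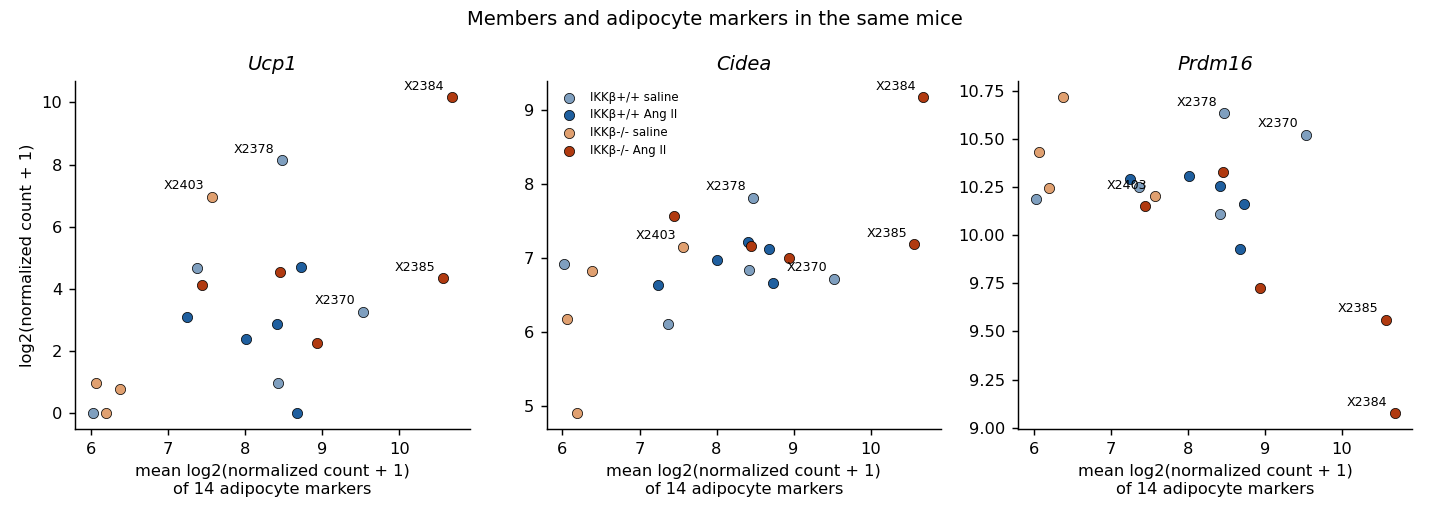
Log2(normalized count + 1) of Ucp1, Cidea and Prdm16 (y axes) against the mean of the same quantity over 14 adipocyte markers (x axis), with 1 point per mouse coloured by group. X2384 and X2385 have the highest marker means and the lowest Prdm16, and they stand far apart in Ucp1 (1156 and 19.3 normalized counts).

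Each gene was also measured relative to the adipocyte markers, as its log2 level minus their mean log2 level in the same mouse, and tested over mice with exact permutations (two-sided, 20 tests, with a smallest possible p of 0.00794). For Prdm16 this ratio of IKKβ-/- mice was 3.85 ± 0.82 (SD, n = 4) after saline and 0.55 ± 1.84 (SD, n = 5) after Ang II, a difference of -3.30 (exact permutation p = 0.0238, adjusted p = 0.238). For Ppargc1a it was -0.40 ± 0.95 (SD, n = 4) after saline and -2.90 ± 0.96 (SD, n = 5) after Ang II, a difference of -2.50 with no overlap of the groups (exact permutation p = 0.00794, adjusted p = 0.159). For Ppargc1a the ratio also differed between the genotypes with saline, -0.40 against -2.15 (exact permutation p = 0.0476, adjusted p = 0.317). The mean log2 level of the markers themselves was 6.55 with saline and 9.22 with Ang II in IKKβ-/- mice, and 7.96 in saline-infused IKKβ+/+ mice. Ppargc1a itself changed by only 0.16 with Ang II in IKKβ-/- mice and by 0.33 between the genotypes with saline. Its ratios thus mainly reflect the markers. Prdm16 itself changed by -0.63 with Ang II in IKKβ-/- mice, against -3.30 for its ratio. Most of that difference in the ratio thus reflects the markers as well. None of the 20 tests passed after adjustment, with or without X2384 and X2385. Without them the ratio in IKKβ-/- mice differed by -2.06 for Prdm16 (exact permutation p = 0.0857, adjusted p = 0.349) and by -1.85 for Ppargc1a, still with no overlap of the groups (exact permutation p = 0.0571, adjusted p = 0.349). With all mice the ratio of Ucp1 in IKKβ-/- mice differed by 0.25 between Ang II and saline (exact permutation p = 0.889). With the adipocyte score as a covariate in limma, the values in IKKβ-/- mice were 0.68 ± 0.57 for Cidea, -0.43 ± 2.06 for Ucp1 and -0.30 ± 0.25 for Prdm16 (adjusted p = 0.712, 0.961 and 0.700), while Dio2 had 1.04 ± 0.55 (adjusted p = 0.522). In bulk tissue, fewer cells of a type and less RNA per cell cannot be told apart.

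Markers of other cells were also counted with Ang II in IKKβ-/- mice. Of 7 smooth muscle, 6 fibroblast, 5 macrophage and 5 skeletal muscle markers tested, 0 were called by limma, edgeR or DESeq2, with 0, 1, 0 and 1 at an unadjusted p under 0.05 by limma. Of 5 endothelial and 3 Schwann cell markers 1 each rose, Kdr (1.79 ± 0.57) and Sox10 (1.74 ± 0.55), and neither was called without X2384 and X2385. In saline-infused and Ang II-treated IKKβ-/- mice the summed smooth muscle markers ran from 427967 to 585613 and from 305181 to 545782 normalized counts, with none at 0. Other comparisons also held calls by limma. With Ang II in IKKβ+/+ mice 2 of 7 smooth muscle and 1 of 3 sympathetic neuron markers rose, and 1 of 6 fibroblast markers fell. With saline 2 of 5 macrophage markers were lower in IKKβ-/- than in IKKβ+/+ mice. Muscle creatine kinase (Ckm) was highest in Ang II-treated IKKβ+/+ mice, 229 ± 111 (SD, n = 5) against 29.0 ± 16.7 (SD, n = 5) with saline (log2 fold change 2.93, adjusted p = 0.000988, limma), and skeletal actin (Acta1) was between 7.17 and 147 in all mice. Tyrosine hydroxylase (Th), an enzyme of noradrenaline synthesis in sympathetic neurons, had 825 and 98.5 normalized counts in the Ang II-treated IKKβ+/+ mice X2356 and X2350 and at most 7.99 in any other mouse. Ucp1 in X2356 and X2350 was 0 and 4.28, so the mice rich in Th were not those rich in Ucp1. The part of other cell types in the values of Cidea, Ucp1 and Prdm16 was not tested beyond the ratio and the covariate.

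Ppargc1a was lower in mice with higher smooth muscle markers. Over the 19 mice its level and the mean log2 level of the 7 smooth muscle markers gave r = -0.65 (permutation p = 0.00255, adjusted p = 0.0183) and rho = -0.69 (permutation p = 0.00147, adjusted p = 0.0294), r = -0.64 without X2384 and X2409, the 2 mice farthest from the median, and -0.69 within groups. Over the 17 mice other than X2384 and X2385 r was -0.53 (permutation p = 0.0278, adjusted p = 0.267). Prdm16 had r = 0.58 with these markers (permutation p = 0.009, adjusted p = 0.036) and rho = 0.58 (permutation p = 0.0111, adjusted p = 0.111). Its r was 0.76 within groups, 0.22 without X2384 and X2409 and 0.23 without X2384 and X2385. Of the 10 pairs among the 5 genes, Ucp1 and Cidea gave the highest r, 0.68 (permutation p = 0.00118, adjusted p = 0.0183), with rho = 0.44 (permutation p = 0.0629, adjusted p = 0.180). The size of r depended on X2378 and X2384, and was 0.35 without them.

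The other genes of brown fat were read from lists of known components. Of the effectors, 20 of 25 listed genes were tested. With Ang II in IKKβ+/+ mice 4 rose and 0 fell (median log2 fold change -0.06, against 0.01 over all genes): Alpl, a phosphatase of the creatine cycle (1.86 ± 0.35), Kcnk3, a potassium channel (1.08 ± 0.33), Pdk4, which restrains glucose oxidation (1.06 ± 0.28), and Ckb, a creatine kinase (0.66 ± 0.18). With Ang II in IKKβ-/- mice 5 rose and 1 fell (median 0.43), led by Plin5, a lipid droplet protein (3.80 ± 0.87), Slc36a2, an amino acid transporter (3.78 ± 0.88), Ucp3, a relative of Ucp1 (3.18 ± 1.01), and Alpl (2.02 ± 0.37). The gene that fell was Fabp3, a fatty acid binding protein (-1.09 ± 0.27). It was also the only effector called between the genotypes with saline, 0.88 ± 0.27 higher in IKKβ-/- mice (adjusted p = 0.0930, limma), where the median was -0.20. Without X2384 and X2385 only Alpl was called with Ang II in IKKβ-/- mice, and with the adipocyte score as a covariate 0 of the 20 were called.

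Cox8b, a subunit of cytochrome c oxidase typical of brown fat, followed the pattern of Ucp1 in part. It had 202 normalized counts in X2384, 55.0 in X2378, 51.4 in X2385 and 17.9 in X2403, and at most 28.6 in the other mice. With saline it lay between 3.97 and 55.0 in IKKβ+/+ and between 0 and 17.9 in IKKβ-/- mice.

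**Figure D5:**
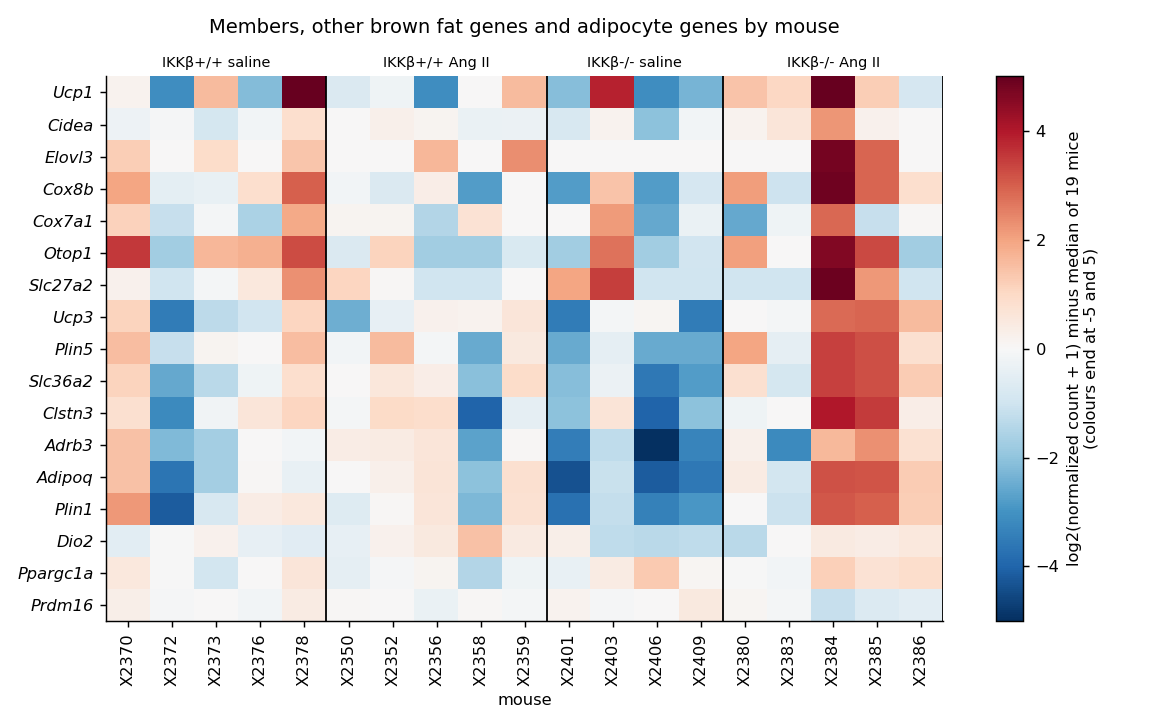
Log2(normalized count + 1) minus the median of the 19 mice (colour, ends at -5 and 5) for the 6 genes, other genes of brown fat and genes of adipocytes (rows) in each mouse (columns, by group). X2384 is red in all rows from Ucp1 to Plin1. X2385 is red in the same rows other than Cox7a1, but only faintly in Ucp1 and Cidea. X2378 and X2403 are reddest in Ucp1.

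Of 18 tested regulators of brown fat, 1 rose (Cebpb, a transcription factor of early adipogenesis, 1.01 ± 0.21) and 1 fell (Zfp516, an activator of Ucp1, -0.47 ± 0.15) with Ang II in IKKβ+/+ mice, 0 were called in IKKβ-/- mice (3 at an unadjusted p under 0.05, and 0 called by edgeR and 1 by DESeq2), and 1 (Hdac3, a histone deacetylase, 0.32 ± 0.10) was higher in IKKβ-/- mice with saline. The medians were -0.03, -0.004 and -0.07. Of 17 adrenergic and cAMP genes, 0 were called in IKKβ+/+ mice by limma and edgeR and 1 by DESeq2 (3 at an unadjusted p under 0.05 by limma), and 3 of the 17 rose in Ang II-treated IKKβ-/- mice. The medians were -0.15 and 0.003. The 3 were Adrb3, the β3-adrenergic receptor of fat cells (3.90 ± 1.04, adjusted p = 0.0471, limma), Prkar2b, a regulatory subunit of protein kinase A (2.7 ± 0.77), and Pde3b, a phosphodiesterase (0.88 ± 0.27). Without X2384 and X2385 none of the 3 was called, and Mapk14, a kinase, was.

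Around Dio2, 6 of 8 genes of thyroid hormone handling were tested. With Ang II in IKKβ+/+ mice Thrb, a thyroid hormone receptor, fell (-0.44 ± 0.13). With the deletion 0 of 6 were called by limma, edgeR or DESeq2 (1 at an unadjusted p under 0.05, median -0.03). Of 9 tested genes of fatty acid elongation, Elovl1 rose in IKKβ+/+ mice (0.77 ± 0.19), and 4 rose in IKKβ-/- mice, Hacd2 (0.73 ± 0.20), Hsd17b12 (0.72 ± 0.14), Hacd3 (0.38 ± 0.10) and Elovl5 (0.38 ± 0.11), enzymes of the elongation cycle, with medians of 0.12 and 0.49. With saline 2 were lower in IKKβ-/- mice, Elovl7 (-1.5 ± 0.44) and Hsd17b12 (-0.51 ± 0.14), with a median of -0.25. Without X2384 and X2385 only Hsd17b12 was called with Ang II in IKKβ-/- mice.

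Among 6 tested relatives of the members, 2 rose with Ang II in IKKβ-/- mice, Cidec (4.89 ± 0.93) and Ucp3 (3.18 ± 1.01), and 0 were called in IKKβ+/+ mice by limma, edgeR or DESeq2 (1 at an unadjusted p under 0.05 by limma), with medians of 0.06 and 0.32. Of 3 tested beige fat markers, 1, the fatty acid transporter Slc27a1, rose in IKKβ-/- mice (1.10 ± 0.31), and 0 did in IKKβ+/+ mice by limma, edgeR or DESeq2 (1 at an unadjusted p under 0.05 by limma). White fat markers rose as well, 2 of 3 tested with Ang II in IKKβ-/- mice by limma (median log2 fold change 3.64). In IKKβ+/+ mice 0 were called (1 at an unadjusted p under 0.05, median 0.46). The sum of the white fat markers was highest in X2385 and X2384, at 1222 and 919 normalized counts. With Ang II, 0 genes of the effectors, regulators, adrenergic, thyroid hormone, elongation, relatives and beige lists were called between the genotypes by limma and edgeR, with 4, 4, 0, 2, 2, 1 and 1 at an unadjusted p under 0.05 by limma. DESeq2 called 1 effector, 2 regulators and 1 gene of thyroid hormone handling there.

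The genes most like each member over the 19 mice were ranked by Pearson r of log2 values, as a description. For Ucp1 they were Mtfp1 (r = 0.77), Otop1 (0.76), Gm45151 (0.76), Gpd1 (0.72), Cox7a1 (0.72), Cox8b (0.70), Lctl (0.67) and Thrsp (0.66). Otop1, a proton channel known from brown fat, had 82.4 normalized counts in X2384 and a median of 2.38. Cox7a1, another subunit of cytochrome c oxidase, had 41.2 in X2384, 24.2 in X2403, 20.7 in X2378 and 1.61 in X2385. The 3 genes most like Cidea were Rbck1 (r = 0.79), Mocs2 (0.79) and Tmem120b (0.79).

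Dio2 was most like genes of another kind. They were Pdpn, which encodes podoplanin (r = 0.88), Cilp, a cartilage matrix protein (0.87), and Dse, a dermatan sulfate epimerase (0.85). Pdpn reached 980 normalized counts and had a median of 343. Ppargc1a was most like Ints6l (r = 0.87), Gm11266 (0.86) and Foxd2os (0.85), and Prdm16 like Zfp619 (0.90), Pbxip1 (0.89) and the fatty acid desaturase Fads2 (0.87). No gene was on the lists of more than 1 member.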

How the data were processed

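RNA was measured in the suprarenal aorta of 19 mice in 4 groups of 4 or 5. The authors extracted total RNA, prepared poly(A) libraries, sequenced single reads, trimmed these (Trimmomatic 0.35), aligned them to GRCm38 (STAR 2.7.1a), with RSEM also named in the submitters' processing notes, and normalized the counts with DESeq2 1.30.1. The deposited values are a signal, these normalized counts, and not raw counts. All values (100%) were whole multiples of 1 read within 0.05 of a read, from which reads were recovered. Depth was 11382573 to 19906694 reads per mouse, which limits precision for Ucp1 and Elovl3.

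Genes that reached 10 normalized counts in 4 or more mice (14845 of 20408) were compared with limma 3.58.1 in R 4.3.3 (lmFit, eBayes with a trend) on log2(normalized count + 1), with 4 group means in 1 fit over all 19 mice, two-sided, and Benjamini-Hochberg adjustment over all genes tested. The pseudocount understates the change of genes with few reads. RPKM used exon lengths of the Gencode annotation of GRCm38. Each library carries its own mouse number, and nothing states litters or cages, so p-values measure the spread between these mice. Correlations used 100000 permutations (scipy 1.17.1). The fit was tested on simulated data. Alternatives tried were edgeR 4.0.16 and DESeq2 1.42.0 on recovered reads, TMM, array weights, no filter, a pseudocount of 4, a fit of only the groups compared, the adipocyte score as a covariate, a threshold of 0.05 for the adjusted p or of 1.5 for the fold, Adipoq alone as the reference of the ratio, and each mouse left out. Leaving out X2384 and X2385 together was chosen after seeing the data.

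The members and lists were chosen with earlier results of these data known. All 6 members are named, with up to 4 called genes per list and comparison in the order of fold change, Adipoq, Plin1, Adrb3, Cox8b, Ckm, Acta1 and Th, and the genes most like a member. Fabp3 with Ang II, Cidec, Cebpa, Lipe, Mapk14 and Alpl without X2384 and X2385, Kdr, Sox10 and the values of Otop1, Cox7a1 and Pdpn were named after their values were seen. Promoters are from RefSeq (GRCm38.p6). The authors' comparisons were not used here, and the result of 1 listed gene is not reported here.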

Additional observations from a re-analysis of the deposited data

Results flagged for a closer look

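In 6 of 23 groups of 4 or 5 mice, 1 mouse lay farther from the rest than Dixon's 95% critical value allows, on untransformed normalized counts. Chance gives about 1 in 20 groups for normally distributed values, but these counts are skewed and include zeros, so that rate does not hold here. The flags are also not independent, because X2384 gave several of them. For Ucp1 these were X2378 among saline-infused IKKβ+/+ mice (283 normalized counts, others 0 to 24.7), X2384 among Ang II-treated IKKβ-/- mice (1156, others 3.86 to 22.2) and X2403 among saline-infused IKKβ-/- mice (124, others 0 to 0.965). Cidea and Elovl3 were also set apart in X2384, at 577 (others 127 to 189) and 26.4 (others 0 to 6.42) normalized counts. Dio2 was 3305 in X2401 among saline-infused IKKβ-/- mice (others 1068 to 1126).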

How the results depend on the processing

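Of 955 results recomputed under an alternative, 924 kept their direction or moved by less than their error and stayed on the same side of the threshold, 17 lost and 10 gained a call, and 4 moved. Those 4 changed sign by more than their SE without being called. The number of members called with Ang II against saline in IKKβ-/- mice, 1, was 0 with only the groups compared, in edgeR, with the adipocyte score as a covariate, at an adjusted p under 0.05 and without X2384 and X2385. It was 2 (Cidea and Prdm16) with array weights and in DESeq2, and ranged from 0 to 3 with each mouse left out in turn. In the other 4 comparisons 0 members were called under every alternative. Of the 20 ratios to the adipocyte markers, 0 to 2 passed with each mouse left out, 2 of them without X2370, and 0 without X2384 and X2385. Among the 17 are 6 correlations lost without X2384 and X2385. Over all genes, 785 were called with Ang II in IKKβ-/- mice, 20 with the adipocyte score as a covariate, 295 with only the groups compared, 271 without X2384 and X2385 and 1164 in DESeq2. The cause was not tested. No paired analysis was possible because the groups share no replicate numbers. Depth limits Elovl3, with 40 reads in all, and Ucp1, with more than 3 reads in 12 mice.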
